A study of Mus musculus with 9 samples.

Results

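Chat, Slc5a7 and Slc10a4, 3 genes by which cholinergic neurons are recognised, were followed across RNA sequencing libraries of wild-type mouse brain tissue labelled "brain ctx". They are 3 of the 1710 genes listed in the deposited table. They were picked by name because they stood among the genes with the lowest values in HighDose against PBS, so that comparison chose them and its values for them are a description. The groups are labelled PBS, a buffered salt solution, LowDose and HighDose, with 3 libraries each, taken 10 days after a stereotaxic injection into the brain. AAV, the adeno-associated virus widely used to deliver genes to neurons, is named in the title of the series. All 9 libraries are labelled WT and, PBS included, as having had a viral injection. The sources used here do not give the strain, age and sex of the mice, the amounts behind LowDose and HighDose, or the virus's capsid, promoter and cargo. Nor do they say whether each library is a different animal, so n, SD and p refer to libraries and their spread may be technical.

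Cholinergic neurons make acetylcholine from choline and acetyl coenzyme A, pack it into synaptic vesicles, release it and take the choline back up after the transmitter is split in the synaptic cleft. Chat encodes choline acetyltransferase, the enzyme of synthesis. Slc5a7 encodes the high-affinity choline transporter of the terminal. Slc10a4 encodes a synaptic vesicle protein found in cholinergic and also in monoaminergic neurons. In the forebrain these neurons are found as large interneurons of the striatum and as projection neurons of the basal forebrain, and rodent cortex holds a sparse population of its own.

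Every listed gene differed at least 2-fold in mean FPKM (the count scaled by the length of the transcript and by the total of the library) between at least 1 pair of groups. Library totals ran between 1.83e+07 and 2.37e+07 counts, and the listed genes held 1.34% to 6.04% of them, with the highest shares in HighDose. Lists of pan-neuronal and cortical genes and of other interneurons had 0 of 16 and 0 of 15 members among the listed genes, so the label of the tissue could not be checked against cortical markers. Genes of striatal medium spiny neurons were present, among them Ppp1r1b at 134 ± 18.4 CPM in HighDose against 376 ± 84.6 CPM in PBS (CPM, counts scaled to the library total, SD, n = 3 each).

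The stretches around the start sites of the members and of Slc18a3, which encodes the vesicular acetylcholine transporter and lies inside Chat, are printed because all 4 genes were low in HighDose. Each runs from 250 bases before to 50 bases after the start in RefSeq on GRCm38.p6, read 5′ to 3′ on the gene's strand, and capitals mark the motifs found. The windows are chr14:32465860-32466159 (minus strand) for Chat, chr14:32464801-32465100 (minus strand) for Slc18a3, chr17:54298985-54299284 (minus strand) for Slc5a7 and chr5:73006654-73006953 (plus strand) for Slc10a4.
Chat: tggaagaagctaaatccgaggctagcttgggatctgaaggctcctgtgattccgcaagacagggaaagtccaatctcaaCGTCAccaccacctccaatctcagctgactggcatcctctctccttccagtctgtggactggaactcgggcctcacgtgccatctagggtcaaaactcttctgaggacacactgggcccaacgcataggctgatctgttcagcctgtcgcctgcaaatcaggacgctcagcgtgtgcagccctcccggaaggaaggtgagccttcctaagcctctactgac
Slc18a3: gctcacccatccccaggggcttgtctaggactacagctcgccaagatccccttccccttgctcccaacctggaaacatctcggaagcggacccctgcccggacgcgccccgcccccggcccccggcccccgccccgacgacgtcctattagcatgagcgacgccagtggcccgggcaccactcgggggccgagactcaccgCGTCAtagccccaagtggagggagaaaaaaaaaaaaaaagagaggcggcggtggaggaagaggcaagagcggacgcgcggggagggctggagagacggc
Slc5a7: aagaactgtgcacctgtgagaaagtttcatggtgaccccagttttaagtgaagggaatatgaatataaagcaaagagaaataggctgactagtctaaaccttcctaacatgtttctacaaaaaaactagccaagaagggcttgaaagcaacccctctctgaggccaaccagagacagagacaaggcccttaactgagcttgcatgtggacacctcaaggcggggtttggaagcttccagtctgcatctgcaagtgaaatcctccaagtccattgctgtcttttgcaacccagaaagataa
Slc10a4: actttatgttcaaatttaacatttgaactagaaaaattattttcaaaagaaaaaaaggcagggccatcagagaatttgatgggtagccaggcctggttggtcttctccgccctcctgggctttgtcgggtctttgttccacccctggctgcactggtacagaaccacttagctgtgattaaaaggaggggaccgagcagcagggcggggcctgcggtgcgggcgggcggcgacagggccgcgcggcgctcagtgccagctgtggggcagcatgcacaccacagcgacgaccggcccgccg
Searched on both strands were TAATTA, a core bound by many homeodomain factors, TGACG, the core of the cAMP response element, and TTCAGCACC and GGACAG, the left and right parts of the element bound by the repressor REST, which is known from the cholinergic locus. TGACG was found at position -171 from the start of Chat and at -49 from that of Slc18a3, on the reverse strand in both, so the capitals read CGTCA. The other motifs were not found in these 4 windows. Of 32851 such windows in the mouse genome 20.8% hold TGACG, 5.29% TAATTA, 0.371% TTCAGCACC and 22.2% GGACAG. The windows differed in base composition, with 1 CpG and 44.7% G or C for Slc5a7, 10 and 55.7% for Chat, 18 and 57.3% for Slc10a4 and 27 and 67.0% for Slc18a3, against medians of 7 and 52.7% over all windows.

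Chat (ENSMUSG00000021919) spans bases 32408203 to 32465989 of chromosome 14 (minus strand, mm10, GENCODE M21). Slc18a3 (ENSMUSG00000100241), at 32462438 to 32464850 on the same strand, lies within it, and the antisense RNA gene Gm2990 covers the start of Chat on the plus strand at 32465042 to 32483548. The sources used here do not say whether reads were counted by strand, so reads of these genes may be shared where they overlap. Slc5a7 (ENSMUSG00000023945) spans bases 54273590 to 54299034 of chromosome 17 (minus strand) and Slc10a4 (ENSMUSG00000029219) bases 73006883 to 73012955 of chromosome 5 (plus strand), and neither overlaps another annotated gene. Counts are of whole genes.

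All 3 members were low in HighDose. Chat had 62, 85 and 50 counts in PBS replicates 1 to 3, 62, 36 and 14 in LowDose, and 26, 4 and 11 in HighDose. As CPM this is 3.38, 4.12 and 2.31 CPM in PBS, 2.61, 1.62 and 0.748 CPM in LowDose, and 1.14, 0.191 and 0.477 CPM in HighDose. Every HighDose library lay below every PBS library, while LowDose replicate 1 lay within the PBS range and LowDose replicate 3 within the HighDose range.

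Slc5a7 had 114, 124 and 96 counts in PBS, 105, 39 and 11 in LowDose, and 30, 24 and 13 in HighDose. The levels were 6.21, 6.005 and 4.43 CPM in PBS, 4.43, 1.75 and 0.588 CPM in LowDose, and 1.31, 1.15 and 0.563 CPM in HighDose. LowDose replicate 1 equalled the lowest PBS library to 3 digits, and LowDose replicate 3 was within the HighDose range.

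Slc10a4 had 52, 72 and 41 counts in PBS, 44, 17 and 6 in LowDose, and 6, 3 and 3 in HighDose. The levels were 2.83, 3.49 and 1.89 CPM in PBS, 1.85, 0.764 and 0.321 CPM in LowDose, and 0.263, 0.144 and 0.130 CPM in HighDose. It was the member with the lowest level in HighDose, where a floor of 3 counts in 1 library lies at 0.130 to 0.144 CPM. The 3 groups did not overlap in CPM, by narrow margins. LowDose replicate 1 and PBS replicate 3 stood at 1.85 and 1.89 CPM. LowDose replicate 3 and HighDose replicate 1 had 6 counts each and differed only through their library totals. Summed over its libraries, HighDose held 12 counts, 0.180 CPM with a 95% Poisson interval of 0.0928 to 0.314 CPM, which covers counting error only.

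**Figure D1:**
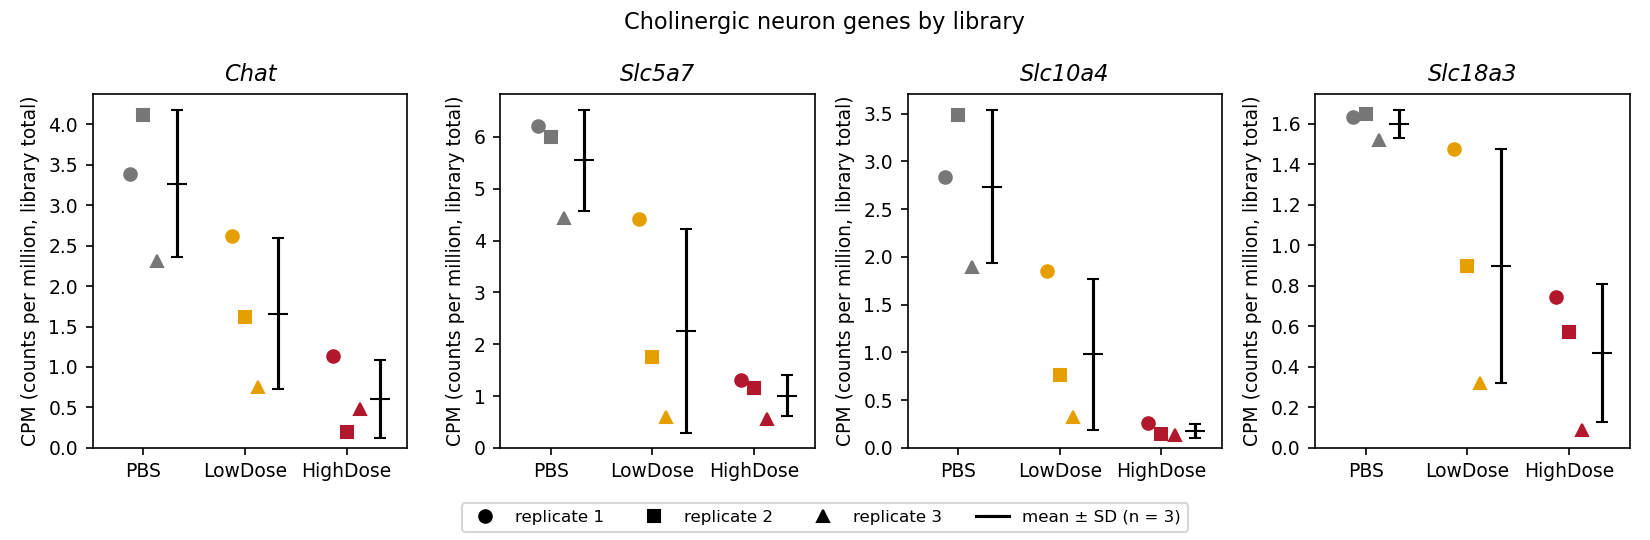
Level of Chat, Slc5a7, Slc10a4 and Slc18a3 (y axis, CPM) in each library of PBS, LowDose and HighDose (x axis), with the replicate number by symbol and the mean ± SD of 3 libraries beside the points. In each panel the HighDose libraries lie below the PBS libraries, and LowDose replicate 3 lies far below LowDose replicate 1.

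Per unit of transcript length the 3 members were close to each other in PBS, at 1.37 ± 0.311 FPKM for Chat, 1.34 ± 0.376 FPKM for Slc10a4 and 1.07 ± 0.192 FPKM for Slc5a7 (SD, n = 3), and neighbours in that order differed by less than the larger of their SDs. In HighDose the order of the levels was Chat at 0.213 ± 0.169 FPKM, Slc5a7 at 0.193 ± 0.0737 FPKM and Slc10a4 at 0.0833 ± 0.0321 FPKM. Chat and Slc5a7 again differed by less than their SD, and Slc10a4 lay below Slc5a7 by more than either SD.

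The members did not keep the same proportions in every library. Slc10a4 had 0.820 to 0.847 counts for each Chat count in PBS, 0.429 to 0.710 in LowDose and 0.231 to 0.750 in HighDose. Slc5a7 had 1.46 to 1.92 counts for each Chat count in PBS, 0.786 to 1.69 in LowDose and 1.15 to 6 in HighDose. The highest values of both ratios in HighDose are those of replicate 2, where Chat had 4 counts.

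Set against PBS, HighDose had Chat at 0.602 ± 0.485 CPM against 3.27 ± 0.911 CPM, Slc5a7 at 1.01 ± 0.394 CPM against 5.55 ± 0.977 CPM, and Slc10a4 at 0.179 ± 0.0729 CPM against 2.74 ± 0.803 CPM (SD, n = 3). The log2 changes were -2.41 ± 0.47 for Chat, -2.46 ± 0.43 for Slc5a7 and -3.89 ± 0.57 for Slc10a4 (± SE, edgeR), that is, 5.33-fold, 5.49-fold and 14.8-fold lower. Counted from the lowest of the 1583 genes tested, Slc10a4 stood at place 3, Slc5a7 at 16 and Chat at 19, and 10.7% of all genes tested were called lower in this comparison at an adjusted p threshold of 0.05. The groups did not overlap for any of the 3, as for 10.3% of all genes tested with HighDose below PBS. No test is read from these values, since they chose the members. Without HighDose replicate 1 the log2 change of Chat was -3.25. Scaling by TMM within the listed genes, which takes most of them as unchanged and moves the median of all genes tested from 1.90 to 0.19, gave -4.04, -4.11 and -5.53 for Chat, Slc5a7 and Slc10a4.

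In LowDose the members lay between the other groups on average but spread widely. Chat was at 1.66 ± 0.933 CPM in LowDose against 3.27 ± 0.911 CPM in PBS, a log2 change of -0.96 ± 0.43 with an adjusted p of 0.323 (edgeR quasi-likelihood test, Benjamini-Hochberg over 1583 genes). Slc5a7 was at 2.26 ± 1.97 CPM against 5.55 ± 0.977 CPM (-1.27 ± 0.40, adjusted p = 0.0739), and Slc10a4 at 0.980 ± 0.789 CPM against 2.74 ± 0.803 CPM (-1.45 ± 0.46, adjusted p = 0.0821). Of the 3 members 0 passed in edgeR and in DESeq2, 3 had an unadjusted p under 0.05 in edgeR, and 3 passed in limma-voom with sample weights. All LowDose libraries were below all PBS libraries for Slc10a4 (nearest 1.85 against 1.89 CPM) and, by a margin past the third digit, for Slc5a7. Such a separation held for 13.1% of all genes tested, and 2.15% of all genes tested were called lower. With the replicate number as a block, Slc5a7 (-1.54, adjusted p = 0.00240) and Slc10a4 (-1.65, 0.0164) passed and Chat (-1.09, 0.118) did not. The PBS libraries are those of the comparison that chose the members, so these values are not independent of the choice.

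The width of LowDose came from libraries at both ends. In LowDose replicate 1 the members stood at 79.99% (Chat), 79.8% (Slc5a7) and 67.8% (Slc10a4) of their PBS mean, in replicate 2 at 49.5%, 31.6% and 27.9%, and in replicate 3 at 22.9%, 10.6% and 11.7%. Without LowDose replicate 1 all 3 passed in LowDose against PBS, with log2 changes of -1.44 (adjusted p = 0.0420), -2.21 (1.84e-05) and -2.30 (0.00155) in the same order of genes. Without LowDose replicate 3 they stood at -0.62 (0.751), -0.84 (0.328) and -1.05 (0.356). Slc5a7 and Slc10a4 also passed without PBS replicate 3 (0.0154 and 0.0303) and without HighDose replicate 2 (0.0180 and 0.0478), which enters through the shared estimate of the spread.

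HighDose was lower than LowDose for each member in the fit of all libraries. The log2 changes of HighDose against LowDose were -1.46 ± 0.48 for Chat (adjusted p = 0.00433), -1.18 ± 0.43 for Slc5a7 (0.0104) and -2.44 ± 0.59 for Slc10a4 (0.000232, edgeR), and 7.08% of all genes tested were called lower. The libraries overlapped for Chat and Slc5a7 and did not in CPM for Slc10a4, as for 6.32% of all genes tested with HighDose below LowDose. The nearest libraries of Slc10a4 had 6 counts each. The calls of Chat (-0.97, 0.0531) and Slc5a7 (-0.24, 0.592) were lost without LowDose replicate 1, that of Slc5a7 also without HighDose replicate 3 (-0.89, 0.0959) and in limma-voom (-0.40, 0.421), while Slc10a4 passed without LowDose replicate 1 (-1.59, 0.0185). The HighDose libraries are those of the comparison that chose the members.

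Of the 8 genes on the list of acetylcholine synthesis, packaging, reuptake and breakdown, 5 are listed and tested, the other two being Slc18a3 and Prima1, the membrane anchor of acetylcholinesterase. Both were called lower in HighDose against PBS, as were 10.7% of all genes tested. Slc18a3 had 30, 34 and 33 counts in PBS, 35, 20 and 6 in LowDose, and 17, 12 and 2 in HighDose. Its PBS libraries were closer together than those of the members, and LowDose replicate 3 and HighDose replicate 3 were its lowest libraries. Its log2 change was -1.77 ± 0.54 in HighDose against PBS (adjusted p = 0.00230), -0.81 ± 0.50 in LowDose against PBS (0.600) and -0.96 ± 0.55 in HighDose against LowDose (0.0911). Prima1 was at 0.691 ± 0.230 CPM in HighDose against 1.83 ± 0.279 CPM in PBS (-1.40 ± 0.44, adjusted p = 0.00311), and its LowDose value of 1.14 ± 0.208 CPM did not pass against PBS (-0.67 ± 0.42, 0.600). As for every listed gene, their mean FPKM differs at least 2-fold between some pair of groups. Ache, Bche and Colq, which complete the 8, are not among the listed genes. Of 21 acetylcholine receptor genes on a further list 0 are listed. The levels of these genes could therefore not be read here.

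Among factors and markers of cholinergic neurons 4 of 15 are listed, and each of these differs at least 2-fold between some groups, as every listed gene does. In HighDose against PBS 3 of them were called lower, beside 10.7% of all genes tested, and Lhx8 and Tacr1 are described here. Lhx8, a LIM homeobox factor that forebrain cholinergic neurons need to form, had 10, 23 and 14 counts in PBS, 12, 0 and 1 in LowDose, and 6, 5 and 0 in HighDose. Its groups HighDose and PBS did not overlap, as for 10.3% of all genes tested with HighDose below PBS. The log2 change was -2.18 ± 0.75 (adjusted p = 0.00610, edgeR, but 0.0638 without HighDose replicate 3). Tacr1, the substance P receptor, which striatal cholinergic interneurons carry, had 132, 146 and 105 counts in PBS, 120, 65 and 27 in LowDose, and 42, 35 and 28 in HighDose. It was lower in HighDose than in PBS by more than the spread of either group (-2.01 ± 0.35, adjusted p = 2.17e-06, edgeR). Against PBS, LowDose did not pass for Lhx8 (adjusted p = 0.186) or Tacr1 (adjusted p = 0.102, edgeR), and both passed without LowDose replicate 1 (0.000799 and 0.00214) and in limma-voom (-3.44 with 0.00952 and -1.26 with 0.00487). Tacr1 passed with the replicate block (-1.11, 0.0163).

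Ecel1, a neuronal endopeptidase known to be induced by nerve injury, was lowest in LowDose. It had 115, 165 and 124 counts in PBS, 88, 58 and 27 in LowDose, and 101, 91 and 150 in HighDose. It was called lower in LowDose against PBS (-1.35 ± 0.31, adjusted p = 0.00783, edgeR) and did not pass in HighDose against PBS (-0.39 ± 0.30, 0.205), and in HighDose against LowDose it was called higher (0.96 ± 0.31, 0.00401), as were 88.1% of all genes tested. With TMM, size factors of DESeq2 or the sum of the listed counts as the scaling, that last direction turned to -0.80, -0.76 and -0.92, and HighDose against PBS passed at -2.09, -2.06 and -2.06. Ecel1 also passed in that comparison in limma-voom scaled by library totals (-0.52, adjusted p = 0.0267). HighDose against LowDose was 0.69 without LowDose replicate 3 (adjusted p = 0.0512, edgeR). The call in LowDose against PBS was lost under these 3 scalings (adjusted p from 0.0649 to 0.0922), without PBS replicate 2 (0.0529) and without LowDose replicate 3 (0.0913).

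Of 16 genes of choline uptake and choline phospholipids 1 is listed, Slc44a3 of the choline transporter-like family. It was called higher in HighDose, at 23, 17 and 38 counts, against 3, 3 and 1 counts in PBS (log2 3.26 ± 0.65, adjusted p = 1.58e-05, and 1.58 with 0.0204 under TMM), as were 86.3% of all genes tested. Of 12 genes of monoaminergic neurons, which also carry Slc10a4, 2 are listed. Ddc, the decarboxylase that makes dopamine and serotonin, was at 3.07 ± 0.973 CPM in HighDose against 6.48 ± 1.67 CPM in PBS (-1.08 ± 0.30, adjusted p = 0.000901), and Tph2, the enzyme of brain serotonin synthesis, at 0.588 ± 0.144 CPM against 1.39 ± 0.330 CPM (-1.24 ± 0.47, adjusted p = 0.0126, but 0.0653 without PBS replicate 2). Neither passed in LowDose against PBS (adjusted p of 0.770 and 0.486). In LowDose replicate 3, where the members were at 10.6% to 22.9% of their PBS mean, Ddc had 5.34 CPM, which is within its PBS range of 4.58 to 7.70 CPM, while Tph2 had 0.641 CPM, below its PBS range of 1.09 to 1.74 CPM.

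**Figure D2:**
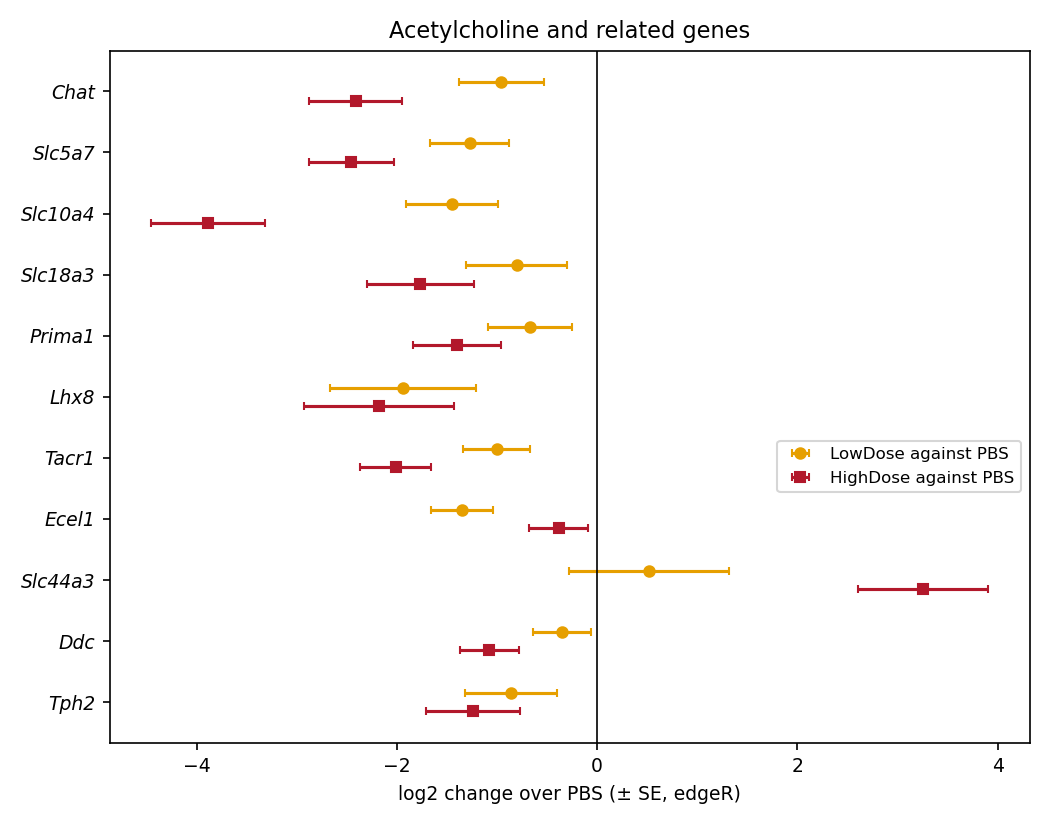
Log2 change over PBS (x axis, ± SE from edgeR) of the 3 members and of 8 other listed genes of acetylcholine, cholinergic identity, choline and monoamine lists (y axis), for LowDose (circles) and HighDose (squares). Slc10a4 has the lowest value at -3.89 in HighDose, Slc44a3 is the only gene above 0, and among the others Ecel1 is the only one lower in LowDose than in HighDose.

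Genes of striatal medium spiny neurons, the projection neurons among which the cholinergic interneurons of the striatum sit, varied with the members from library to library. Of 30 genes on that list 20 are listed, and 20 were called lower in HighDose against PBS and 14 in LowDose against PBS, beside 10.7% and 2.15% of all genes tested, with median log2 changes of -1.66 and -1.14 beside 1.90 and -0.03 over all genes tested. Every listed gene differs at least 2-fold in mean FPKM between some pair of groups, so genes of this list that changed less could not appear. That choice bears on the count of 20, on the medians and on the smallest changes. With scaling within the listed genes the calls of these 20 genes in LowDose against PBS were lost. In HighDose against PBS their single log2 changes ran from -3.48 (Six3) to -1.02 (Actn2), with Drd2 at -2.57. Falls as deep as those of Chat (-2.41) and Slc5a7 (-2.46) thus occurred on this list too. Slc10a4 (-3.89 ± 0.57) lay below the lowest gene of the list, Six3 (-3.48 ± 0.50), by less than either SE. Relative to the PBS mean, the mean log2(CPM + 0.5) of these 20 genes stood at 0.06, 0.23 and -0.29 in PBS replicates 1 to 3, at -0.54, -1.26 and -1.76 in LowDose, and at -1.55, -1.64 and -1.99 in HighDose. The mean of the 3 members stood at 0.10, 0.26 and -0.36 in PBS, at -0.32, -1.18 and -1.99 in LowDose, and at -1.65, -2.19 and -2.25 in HighDose. Within each group both quantities put the libraries in the same order, with replicate 3 the lowest. The share of striatum in the pieces of tissue is not known, and in such bulk tissue fewer cholinergic neurons and less RNA per neuron cannot be told apart.

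**Figure D3:**
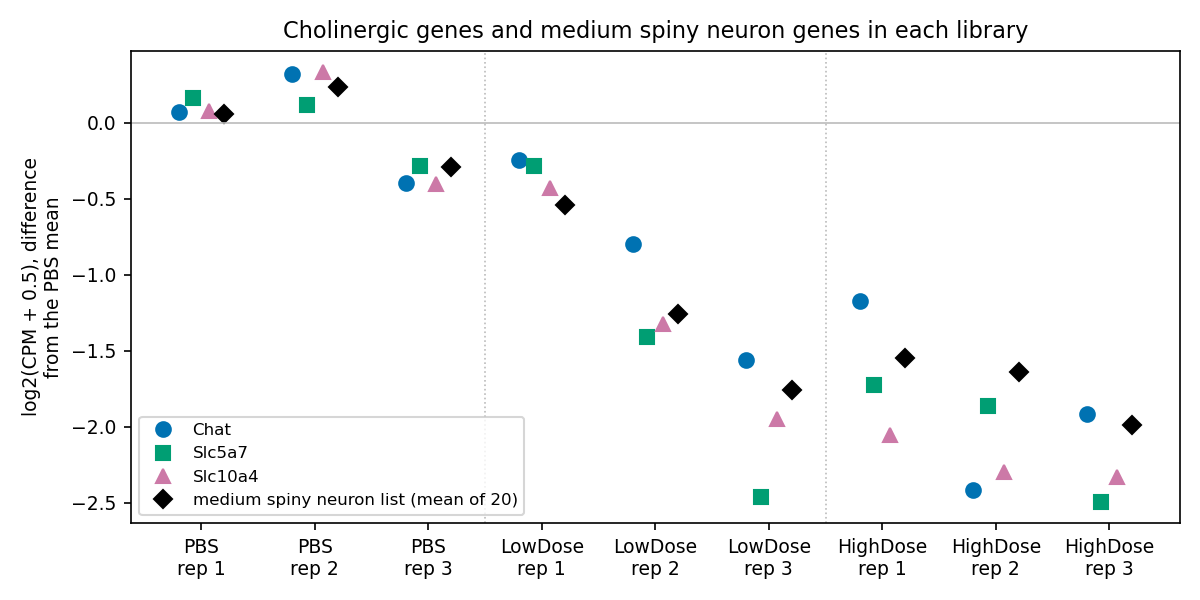
Log2(CPM + 0.5) relative to the PBS mean (y axis) of Chat, Slc5a7, Slc10a4 and the mean of the 20 listed medium spiny neuron genes in each of the 9 libraries (x axis). LowDose replicate 1 lies near PBS replicate 3, with the list at -0.54 and -0.29, and LowDose replicate 3 lies within the HighDose range for Chat, Slc5a7 and the list, which is at -1.76, and above all HighDose libraries for Slc10a4.

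The members were also expressed per 1000 counts of these 20 genes, which needs neither a pseudocount nor a library total. In this sum abundant genes weigh most, such as Ppp1r1b (376 CPM in PBS, log2 change -1.49 in HighDose against PBS). Less abundant genes fell further (Drd2, 36.6 CPM, -2.57) or less far (Actn2, 21.1 CPM, -1.02). The measure thus does not compare the members with each gene of the list. Summed, they had 5.34, 5.02 and 4.51 counts per 1000 in PBS, 5.65, 3.79 and 1.96 in LowDose, and 3.15, 1.85 and 1.71 in HighDose. HighDose lay below PBS in every library, at a mean of 2.24 ± 0.792 against 4.96 ± 0.417 (SD, n = 3), which is a description because the members were chosen among the lowest genes of this comparison. LowDose replicate 1 was above PBS and LowDose replicate 3 within the HighDose range. On the log2(CPM + 0.5) scale the members lay -0.30 ± 0.23 from the list in HighDose relative to PBS, a value that was -0.92 with a pseudocount of 0.1 CPM and 0.051 with 1 CPM, so on that scale its sign depends on the pseudocount.

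The other cholinergic genes, which the choice of members did not name, gave a mixed picture on that measure. Slc18a3 had 0.863, 0.718 and 0.127 counts per 1000 in HighDose against 0.703, 0.607 and 0.797 in PBS, and the groups overlapped. Tacr1 had 2.13, 2.09 and 1.78 in HighDose against 3.09, 2.61 and 2.53 in PBS, with no overlap. Prima1 (0.634 to 1.02 in HighDose against 0.656 to 1.09 in PBS) and Lhx8 (0 to 0.305 against 0.234 to 0.411) overlapped, and Ecel1 was higher in each HighDose library (5.13 to 9.51 against 2.69 to 2.99).

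**Figure D4:**
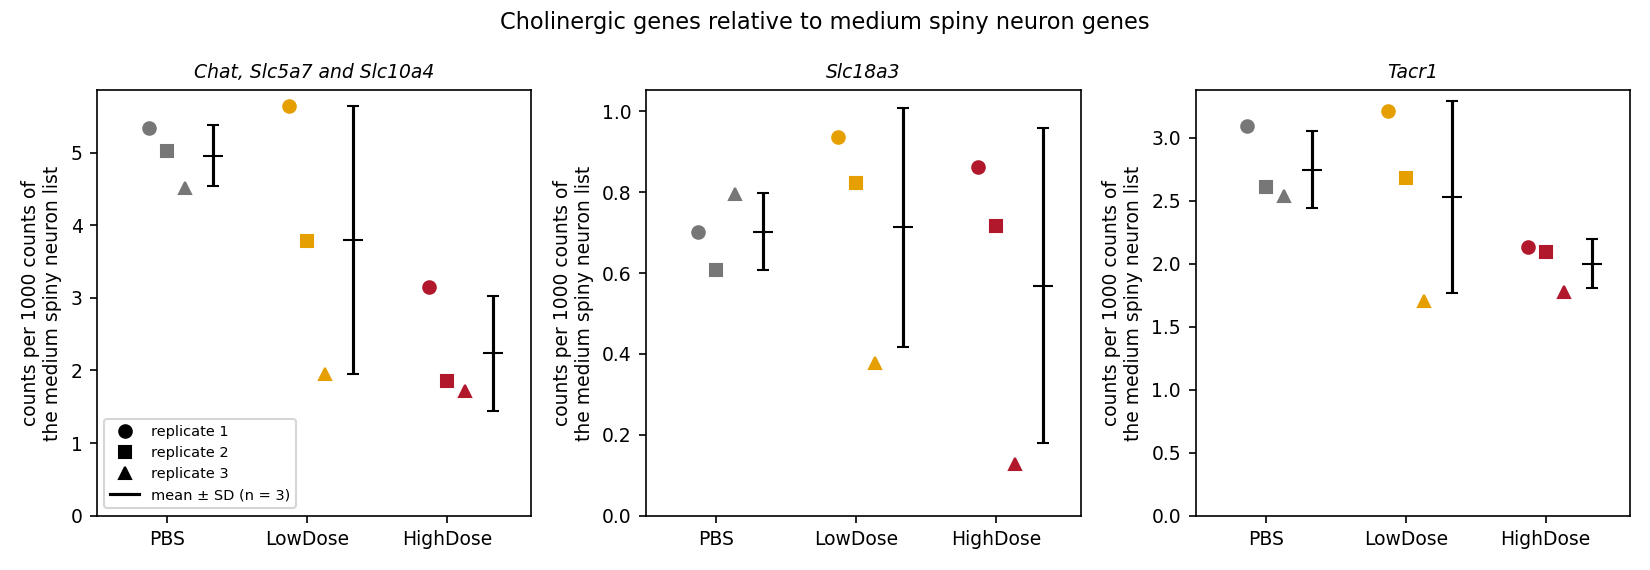
Counts per 1000 counts of the 20 listed medium spiny neuron genes (y axis) for the 3 members summed, Slc18a3 and Tacr1 in each library of PBS, LowDose and HighDose (x axis), with the mean ± SD of 3 libraries. The summed members lie between 1.71 and 3.15 in HighDose and between 4.51 and 5.34 in PBS, while Slc18a3 overlaps between these groups.

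The genes whose level ran most like that of the members were sought among 1157 tested genes with a mean of at least 0.5 CPM in PBS. The measure was the root mean square difference, over the 9 libraries, between the gene's centred log2(CPM + 0.5) and the mean of the members. The nearest was Rgs9, which speeds the switching off of G proteins, at a difference of 0.14 log2 units. It was followed by Tacr1 (0.18), the nuclear receptor Rxrg (0.18), the dopamine D2 receptor Drd2 (0.22), the receptor Gpr6 (0.23), the enkephalin precursor Penk (0.24), the homeobox factor Six3 (0.28), Sh3rf2 (0.29) and the G protein subunit Gng7 (0.29). Of the 10 nearest genes, 9 of them named here, 8 are on the medium spiny neuron list and 1, Tacr1, on the list of cholinergic markers. Slc18a3 stood at place 26 with 0.43 and Lhx8 at 56 with 0.57. The 0.5 CPM added before the logarithm limits how far genes of low level can fall on this measure. With 0 counts Lhx8 stood at -1.32 from its PBS mean, while the members averaged -2.03 in HighDose. The places of such genes therefore depend on their level too. The 9 libraries share the 3 groups, so a like profile over them mostly repeats the group means.

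Genes of other cells moved with HighDose too. The 5 listed T cell genes (of 8) summed to 10.3 to 21.4 CPM in HighDose, against 0.436 to 0.876 CPM in PBS, where Cd3d had 0 counts in every library. The 2 listed astrocyte genes (of 7), Gfap and Vim, summed to 444 to 633 CPM in HighDose against 144 to 177 CPM in PBS, the 5 entries of the 4 listed microglial genes (of 8, with Itgam under 2 identifiers) to 125 to 148 CPM against 85.5 to 105 CPM, and the oligodendrocyte genes Mal and Mog (2 of 8) to 186 to 265 CPM against 443 to 555 CPM. Of the 5 microglial entries 4 were called higher in HighDose against PBS, as were 86.3% of all genes tested. The remaining 1, P2ry12, was called lower (log2 -0.97, edgeR), as were 10.7% of all genes tested. In LowDose the T cell genes summed to 0.885 to 1.12 CPM, the astrocyte genes to 128 to 200 CPM, the microglial entries to 79.1 to 87.6 CPM and the oligodendrocyte genes to 275 to 307 CPM. The part of these cells in the levels of the members was not tested.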

How the data were processed

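Estimated counts and FPKM per gene and library were deposited by the authors, made on mm10 per the submitters' processing notes, which name edgeR and DESeq2 without a role. The sources used here name no aligner or counter. Between 7.66% and 14.0% of a library's deposited estimated counts had decimals, and all were rounded. The FPKM columns are named so per the file headers, and their normalization is not described further. The total of each library followed from its counts, FPKM and GENCODE M21 lengths in 23 to 68 one-transcript genes (FPKM from 5, counts from 100, length from 600 bases). Their scatter was at most 0.0448%.

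Groups were compared with the quasi-likelihood test of edgeR 4.0.16 (R 4.3.3), scaled by library totals, after filterByExpr (minimum count 10), in 1 model of the 9 libraries. The Benjamini-Hochberg adjustment covers the 1583 listed genes that passed, not the transcriptome. In HighDose against PBS, where most genes were called, it changed p little, as for Lhx8 from 0.00558 to 0.00610. In LowDose against PBS it raised p far more, as for Slc5a7 from 0.00257 to 0.0739. A call in one comparison and none in the other therefore does not rank the unadjusted p of these genes. Each SE is the log2 change divided by the root of its F statistic. The pipeline was run on counts simulated with every group at the PBS mean and a set of genes changed equally up and down. A shift like that of HighDose, where 86.3% of all genes tested were called higher than in PBS, was not simulated. Alternatives were 3 scalings within the listed genes, 2 filters, DESeq2 1.42.0, limma-voom (limma 3.58.1), only the groups compared, a replicate block and leaving out each library. Whether replicate numbers pair libraries between groups is not known. Deviations of same-numbered libraries of LowDose and PBS correlated across genes at 0.25, 0.16 and 0.14, and those of other numbers at -0.15 to 0.01. Same-numbered libraries of HighDose gave 0.07, -0.01 and 0.15 with PBS and 0.18, 0.01 and 0.08 with LowDose. Deviations within a group cancel, so other-numbered values fall where same-numbered ones rise, and these correlations do not establish a pairing.

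The members and lists were chosen with earlier results of these data known. Named were the members, listed genes of the cholinergic, choline and monoamine lists, a few striatal genes and the 10 most similar profiles. Cd3d, Gfap, Vim, Mal, Mog and P2ry12 were named after their values were seen. Some genes of these lists are not reported here. Tables and plots were made in Python 3.11.15 with matplotlib 3.10.9 and pandas 2.3.3.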

Additional observations from a re-analysis of the deposited data

How the results depend on the processing

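HighDose against PBS chose the members, so nothing is read from their values under its alternatives. The replicate block changed no member's call there or in HighDose against LowDose. The scalings within the listed genes, TMM, size factors of DESeq2 and the sum of listed counts, moved the calls over all genes from 169 lower and 1366 higher to 464 and 600, 455 and 605, and 453 and 607, and in HighDose against LowDose from 112 and 1394 to 461 and 565, 445 and 576, and 524 and 524. There they moved the 19 listed pathway genes called to 30, 30 and 30.

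In LowDose against PBS, these scalings gave 3, 3 and 2 genes lower in place of 34, and TMM and DESeq2 size factors gave 3 and 3 higher in place of 7, with 0 pathway genes called in place of 15. The members called lower in this comparison, 0 in the fit reported, were 1 without the filter (Slc5a7, adjusted p = 0.0499), 3 in limma-voom and 2 with the replicate block. Limma-voom called 79 genes lower, 17 higher and 26 of the pathway. The fit of only the groups compared called 54 lower and 11 higher, and the block 12 higher and 24 of the pathway.

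Leaving out 1 library gave 0 to 3 members, 16 to 57 genes lower, 5 to 20 higher and 7 to 27 of the pathway in LowDose against PBS, and 1 to 3 members and 8 to 23 of the pathway in HighDose against LowDose. In LowDose against PBS each highest value came without LowDose replicate 1, and the 16 lower and 7 of the pathway came without LowDose replicate 3.

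The level of the members relative to medium spiny neuron genes was -0.30 in HighDose relative to PBS and 0.02 in LowDose relative to PBS. It was -0.92 in HighDose with 0.1 CPM and reversed to 0.051 with 1 CPM. As a ratio of summed counts, chosen after seeing the data, it was -1.20 in HighDose and -0.51 in LowDose. With 3 to 30 counts of a member in a HighDose library, depth limits each value there.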
